A study of Mus musculus with 32 samples.

Results

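The 9 pericentral and Wnt-target genes of mouse liver described here are Glul, Cyp2e1, Cyp1a2, Oat, Rgn, Axin2, Lgr5, Tbx3 and Slc1a2. They were taken from the deposited count table by gene symbol, as 9 of 54532 listed genes, and all of them passed the filter on low counts that left 17853 genes for testing. The study, whose title concerns the daily rhythms of the liver transcriptome in non-alcoholic steatohepatitis, set 2 diets against each other over the day. Wild type mice received either cdHFD, which is high in fat, free of choline and low in methionine, or normal chow, in both cases for 2 weeks. Livers were collected at ZT2, ZT8, ZT14 and ZT20, 6 h apart, with ZT as hours of the light schedule that the labels name and do not describe. Each of the 8 groups of diet and time held 4 livers, 2 from females and 2 from males, except that cdHFD at ZT14 held 1 female and 3 males. Strain and age are not given in the labels, and neither is it stated that each replicate is a separate animal, so that the p-values speak to the spread of these libraries only.

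Hepatocytes differ along the path of the blood through the liver lobule, from the portal vein to the central vein. Endothelial cells of the central vein release Wnt ligands and R-spondins, which stabilise beta-catenin in the hepatocytes around it and keep a pericentral set of genes active there. Glutamine synthesis sits in the innermost ring of these cells, where ammonia that escaped the urea cycle is captured, and oxidation of drugs and alcohol by cytochromes P450 spreads over a wider zone. Bulk RNA holds no position within the lobule, so the zone of each gene is background and was not measured. A lower level in such RNA can come from fewer cells of a type or from less RNA per cell, and these cannot be told apart.

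Sequences upstream of the start sites were read for the genes that RefSeq covers in its table for GRCm38.p6, which were 6 of the 9 (Glul, Cyp2e1, Cyp1a2, Oat, Axin2 and Slc1a2), in order to see whether the letters read by TCF and LEF factors, the DNA-binding partners of beta-catenin, stand near them. The core letters CTTTGA, searched on both strands from 250 bases before to 50 bases after the start, were found for Cyp2e1, Cyp1a2 and Slc1a2 and not for Glul, Oat or Axin2. Of 32544 promoters of the same length 16.02% held them. The 3 sequences with a match follow with that of Axin2, each 5′ to 3′ on the strand of its gene. The match is in capitals (TCAAAG is the same motif on the other strand). All are cut at the outermost annotated start, except that of Slc1a2, which is cut at the RefSeq start. They span chr7:140763569-140763738 on the plus strand for Cyp2e1, chr9:57683704-57683905 on the minus strand for Cyp1a2, chr2:102706188-102706437 on the plus strand for Slc1a2 and chr11:108920099-108920348 on the plus strand for Axin2.
Cyp2e1: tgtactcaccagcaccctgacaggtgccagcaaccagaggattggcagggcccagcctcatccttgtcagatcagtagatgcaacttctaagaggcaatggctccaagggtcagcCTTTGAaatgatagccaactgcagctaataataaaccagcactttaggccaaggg
Cyp1a2: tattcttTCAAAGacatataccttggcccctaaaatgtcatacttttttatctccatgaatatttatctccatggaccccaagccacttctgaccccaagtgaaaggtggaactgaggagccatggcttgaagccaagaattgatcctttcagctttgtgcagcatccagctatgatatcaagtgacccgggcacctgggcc
Slc1a2: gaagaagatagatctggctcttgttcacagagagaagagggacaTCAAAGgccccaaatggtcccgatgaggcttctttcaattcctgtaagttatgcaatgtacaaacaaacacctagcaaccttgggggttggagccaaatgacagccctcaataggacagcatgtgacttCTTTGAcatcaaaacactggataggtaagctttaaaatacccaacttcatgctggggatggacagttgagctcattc
Axin2: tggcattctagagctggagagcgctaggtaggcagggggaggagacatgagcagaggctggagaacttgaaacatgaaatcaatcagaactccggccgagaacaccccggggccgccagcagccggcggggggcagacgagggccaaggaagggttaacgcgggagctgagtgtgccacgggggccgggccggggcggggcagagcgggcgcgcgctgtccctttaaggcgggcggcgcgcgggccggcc
The match lay at -135 to -130 from the RefSeq start in Cyp2e1 and at -243 to -238 in Cyp1a2, and Slc1a2 had 2 of them, at -206 to -201 and at -77 to -72. The start that RefSeq gives for Slc1a2 lies 47779 bases inside the gene as GENCODE draws it. Slc1a2 also held TTATGCAA at -158 to -151, a match to the D-box TTATGNAA of PAR bZIP factors, which 3.392% of promoters held. The E-box CACGTG of clock factors and the letters TNGCGTG of the aryl hydrocarbon receptor were in none of the 6 windows, against 7.166% and 5.095% of all promoters. A match is a run of letters and was not tested as a binding site.

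The libraries held 29.5 to 54.6 M counts, with a median of 37.2 M. Among the 9 genes the fewest counts in a library were 64 for Lgr5 and 107 for Axin2, and the most were 491043 for Cyp2e1. The makeup of the libraries differed by diet, and the composition factor (TMM) was 1.08 to 1.38 in cdHFD and 0.746 to 0.918 in chow. The 19 hepatocyte identity genes found in the table summed to 57847 to 93642 CPM (counts divided by the scaled library total, in M) in cdHFD livers and to 144910 to 221000 CPM in chow livers. The 15 macrophage markers summed to 1222 to 2046 CPM in cdHFD and 143 to 668 CPM in chow, the 13 stellate cell markers to 608 to 1803 CPM in cdHFD and 188 to 672 CPM in chow, and the 8 cholangiocyte markers to 131 to 755 CPM in cdHFD and 69.5 to 246 CPM in chow. Sums over the 16 endothelial markers overlapped, with 264 to 439 CPM in cdHFD and 198 to 411 CPM in chow, as did those of the 10 T, B and NK cell markers, with 6.11 to 16.7 CPM in cdHFD and 5.61 to 20.4 CPM in chow. Levels are CPM scaled by TMM unless another scaling is named. The part of these cell types in the results that follow was not tested. Scaling by hepatocyte identity genes, given below, is no test of it, because 18 of those 19 genes were themselves lower in cdHFD.

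Under TMM scaling 8 of the 9 pericentral and Wnt-target genes were lower in cdHFD livers, a direction that Glul, Cyp1a2, Lgr5 and Tbx3 turned when libraries were scaled by hepatocyte genes. Averaged over the 4 times, the same 8 passed the test as lower and 0 as higher in cdHFD, with a median log2 difference of -0.82. Over all 17853 genes 31.2% were called lower and 31% higher, and the median was -0.02. Calls are from edgeR's quasi-likelihood test at a Benjamini-Hochberg adjusted p under 0.05 over all genes tested. The gene outside this pattern was Axin2, at 0.23.

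Glul encodes glutamine synthetase, which joins ammonia to glutamate in the hepatocytes next to the central vein (chromosome 1, 153899944 to 153909723). It lay between 483 and 1083 CPM in cdHFD livers, with a median of 664, and between 765 and 2122 CPM in chow livers, with a median of 1127. Of the 16 cdHFD livers 13 were below the lowest chow liver, and all 16 were below the chow median. The log2 difference was -0.81 ± 0.09 (SE; n = 16 livers per diet; adjusted p = 7.66e-09 in edgeR), or 1.76-fold lower in cdHFD.

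Slc1a2, the glutamate transporter that supplies the same cells (chromosome 2, 102658659 to 102790784), was lower as well. Its lowest, median and highest levels were 27.9, 47.0 and 99.2 CPM in cdHFD livers and 87.9, 160 and 236 CPM in chow livers. The ranges met in 1 liver, as 15 of 16 cdHFD livers lay below all chow livers. Its log2 difference was -1.48 ± 0.11 (adjusted p = 6.81e-13 in edgeR), 2.79-fold lower in cdHFD. Oat, the mitochondrial ornithine aminotransferase that links ornithine to glutamate (chromosome 7, 132557478 to 132576398), had 128, 269 and 528 CPM as lowest, median and highest in cdHFD and 362, 735 and 1846 CPM in chow. Below every chow liver stood 12 of the 16 cdHFD livers. The difference of Oat was -1.65 ± 0.18 (adjusted p = 1.25e-09 in edgeR), 3.13-fold lower in cdHFD.

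Both cytochromes P450 were lower. Cyp2e1, which oxidises ethanol and small solvents (chromosome 7, 140763739 to 140774987), had the highest CPM of the 9, with 1401, 2907 and 4892 CPM as lowest, median and highest in cdHFD and 3025, 6481 and 11032 CPM in chow. The ranges overlapped, with 8 of 16 cdHFD livers below all chow livers, and the difference was -1.13 ± 0.12 (adjusted p = 4.2e-10 in edgeR). Cyp1a2, which oxidises caffeine and arylamines (chromosome 9, 57676937 to 57683703), ranged from 332 to 991 CPM with a median of 573 in cdHFD, and from 557 to 1281 CPM with a median of 956 in chow. Here 6 of 16 cdHFD livers lay below all chow livers, and the difference was -0.66 ± 0.12 (adjusted p = 1.12e-05 in edgeR).

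Rgn, whose product regucalcin binds calcium and hydrolyses lactones (chromosome X, 20549787 to 20562089), separated the diets completely. It lay at 216 to 620 CPM with a median of 379 in cdHFD livers, and at 767 to 1995 CPM with a median of 1349 in chow livers. No cdHFD liver reached the lowest chow liver at any time. Its difference of -1.78 ± 0.11 (adjusted p = 7.51e-15 in edgeR) corresponds to 3.44-fold lower in cdHFD and was the most negative of the 9 under TMM, total counts and hepatocyte scaling.

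**Figure D1:**
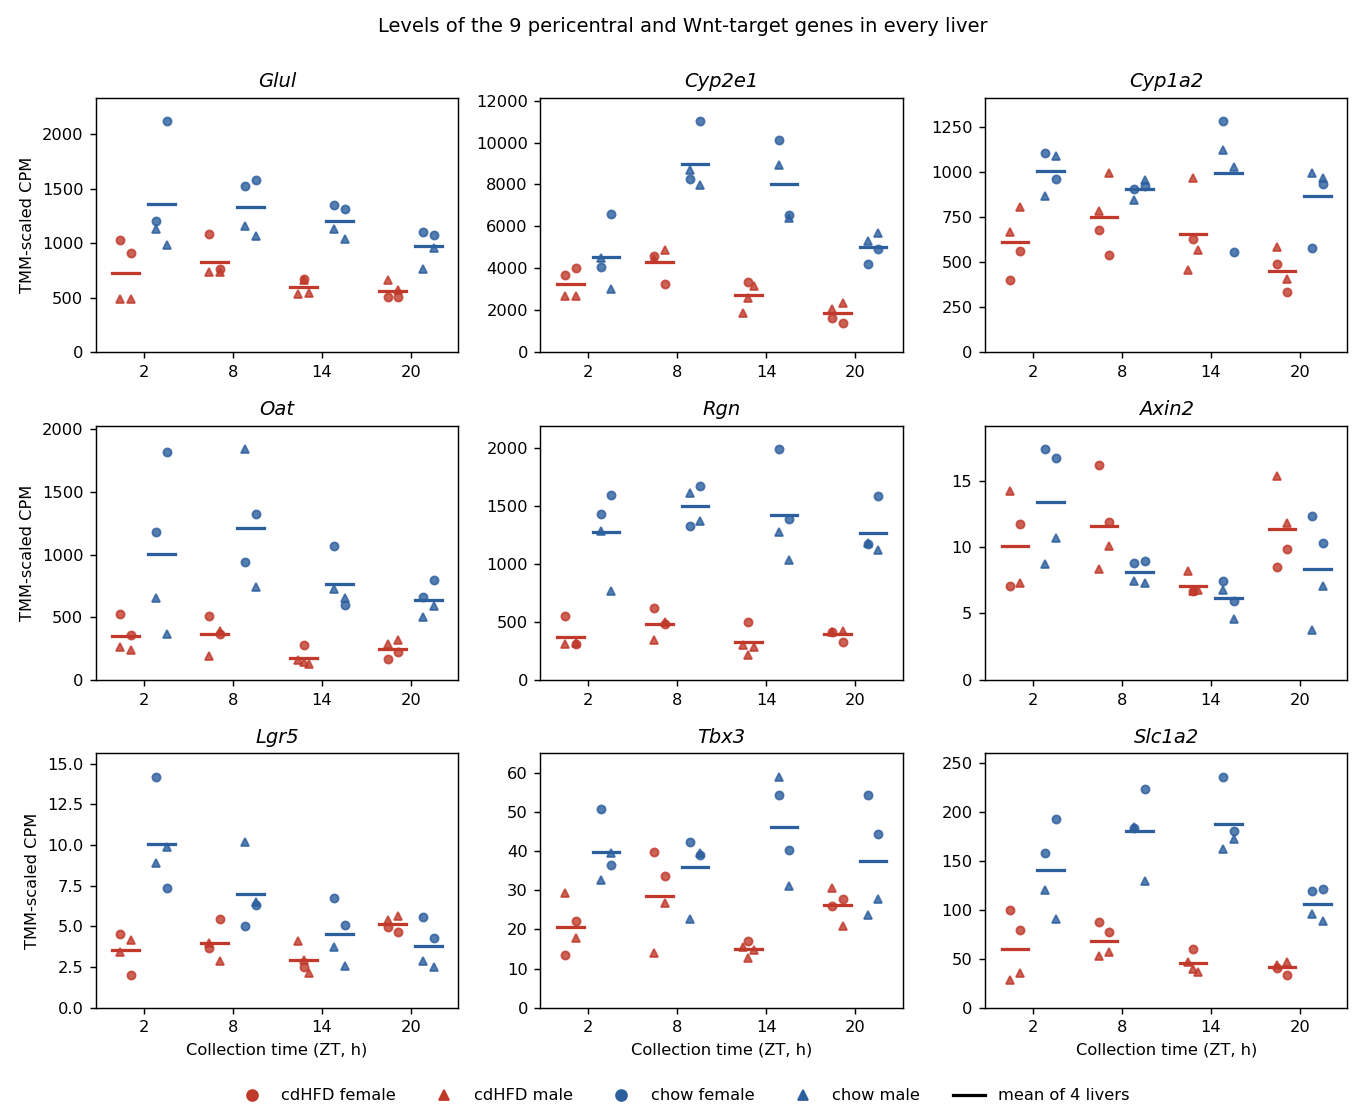
Level of each gene in every liver as TMM-scaled CPM (vertical axes, starting at 0) at the 4 collection times (horizontal axes, ZT in h), with cdHFD in red left of chow in blue, females as circles, males as triangles and the mean of the 4 livers as a line. Rgn shows no overlap between diets at any time, Axin2 overlaps at all 4 times, and the mean chow level of Lgr5 is highest at ZT2, where the livers lie between 7.36 and 14.2 CPM.

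Of the 3 genes that act in or close to Wnt signalling, 2 were lower under TMM. Tbx3, a T-box repressor that beta-catenin activates in hepatocytes (chromosome 5, 119670669 to 119684724), had 12.6, 21.5 and 39.9 CPM as lowest, median and highest in cdHFD and 22.7, 39.5 and 59.1 CPM in chow. Of 16 cdHFD livers 9 lay below all chow livers, and the difference was -0.82 ± 0.14 (adjusted p = 2.53e-06 in edgeR). Its exons share 115 bases with the antisense gene Tbx3os1, which had 13474 counts over the 32 libraries against 37184 for Tbx3, and the libraries do not mark strand, so that reads in the shared bases cannot be told apart. Lgr5, a receptor for R-spondins (chromosome 10, 115450311 to 115587780), ranged from 2.01 to 5.62 CPM with a median of 4.06 in cdHFD and from 2.49 to 14.2 CPM with a median of 5.96 in chow. Only 2 of 16 cdHFD livers lay below all chow livers, while all 16 lay below the chow median, and the averaged difference was -0.61 ± 0.16 (adjusted p = 6.9e-04 in edgeR). Among males alone it was -0.39 and did not pass (adjusted p = 0.0592), and among females alone it was -0.81 (adjusted p = 0.00473).

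Axin2, a scaffold of the complex that degrades beta-catenin and a feedback target of Wnt signalling in many cell types (chromosome 11, 108920349 to 108950783), did not pass. It had 6.66, 9.17 and 16.2 CPM as lowest, median and highest in cdHFD and 3.77, 8.10 and 17.4 CPM in chow. No cdHFD liver fell below the lowest chow liver, and the diets overlapped at every time. The difference of 0.23 ± 0.14 had a 95% confidence interval of -0.07 to 0.53 (adjusted p = 0.141 in edgeR). This interval leaves out decreases of the size seen in the other 8.

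Levels per kb of exon spanned a wide range, with the same 5 genes at the top in both diets. In cdHFD livers Cyp2e1 led with 1406 ± 500 CPM per kb (SD, n = 16), followed by Cyp1a2 with 305 ± 96, Rgn with 245 ± 69.5, Glul with 204 ± 57 and Oat with 121 ± 52.1. In chow livers Cyp2e1 had 3079 ± 1079 CPM per kb, Rgn 849 ± 182, Cyp1a2 468 ± 90.9, Oat 383 ± 187 and Glul 367 ± 95.5. Neighbours in the order Cyp1a2, Rgn and Glul in cdHFD, and in the order Cyp1a2, Oat and Glul in chow, differed by less than the spread between livers. The others stood far lower. In cdHFD they were Slc1a2 at 4.10 ± 1.61, Tbx3 at 3.42 ± 1.24, Axin2 at 1.82 ± 0.58 and Lgr5 at 0.380 ± 0.114 CPM per kb, and Slc1a2 and Tbx3 differed by less than their spread. In chow they were Slc1a2 at 11.7 ± 3.5, Tbx3 at 6.02 ± 1.65, Axin2 at 1.64 ± 0.69 and Lgr5 at 0.620 ± 0.312 CPM per kb.

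The size of these differences, and for several genes their direction, depended on what the libraries were scaled by. With total counts alone the median of all genes moved to a log2 difference of 0.54, and 5 of the 9 genes were lower and 1 higher in cdHFD, against 9.14% of all genes lower and 69.2% higher. Rgn (-1.21), Oat (-1.08), Slc1a2 (-0.91), Cyp2e1 (-0.56) and Glul (-0.24) passed as lower, and Axin2 passed as higher at 0.79 (adjusted p = 5.54e-06). Tbx3 at -0.25, Cyp1a2 at -0.09 and Lgr5 at -0.04 did not pass. When the libraries were scaled by the geometric mean of the hepatocyte identity genes, which asks how a gene stood against other hepatocyte transcripts, the median of all genes moved to 1.05, with 3.61% of all genes called lower and 86.9% higher. Rgn (-0.69), Oat (-0.56) and Slc1a2 (-0.39) then passed as lower. Glul (0.28), Cyp1a2 (0.43), Lgr5 (0.49), Tbx3 (0.27) and Axin2 (1.32) passed as higher, and Cyp2e1 (-0.04) did not pass. Relative to the median of all genes, which moves with the scaling as each gene does, Glul lay at -0.80, Lgr5 at -0.59 and Axin2 at 0.25 under TMM.

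**Figure D2:**
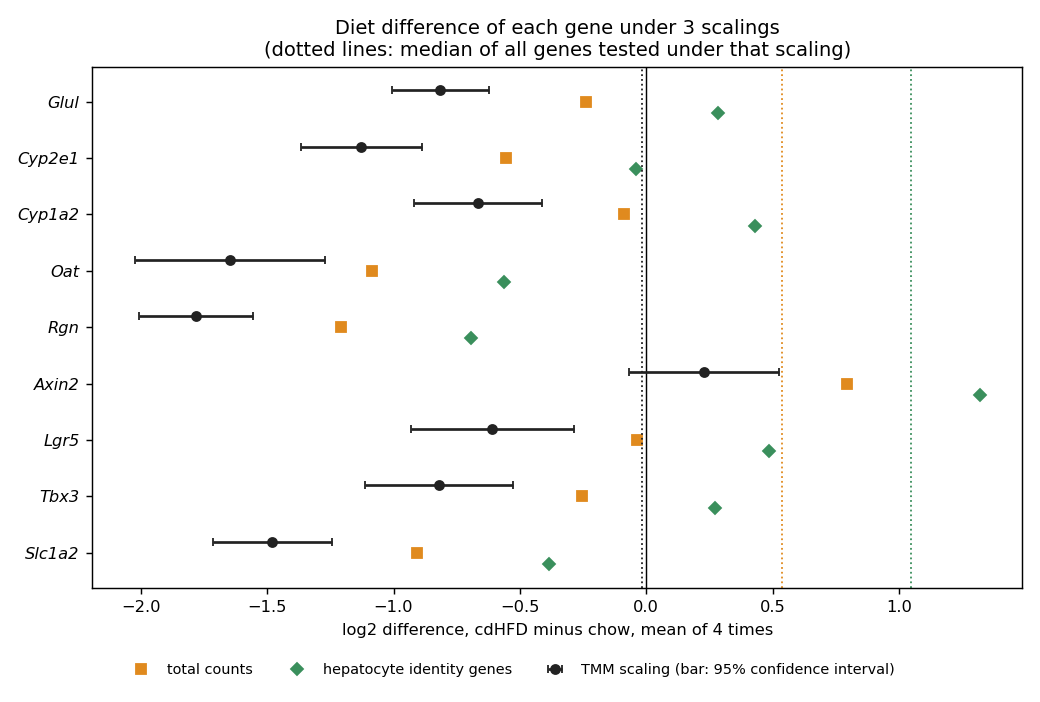
Log2 difference of each gene, cdHFD minus chow averaged over the 4 times (horizontal axis), under TMM scaling with its 95% confidence interval, under total counts and under scaling by hepatocyte identity genes, with dotted lines at the median of all genes tested. Rgn, Oat and Slc1a2 lie left of 0 under the 3 scalings, whereas Glul, Cyp1a2, Lgr5 and Tbx3 cross to the right under hepatocyte scaling.

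The diet difference was followed at each time. Lower in cdHFD were 7 of the 9 genes at ZT2, 6 at ZT8, 7 at ZT14 and 6 at ZT20, against 20.7%, 19.4%, 15.8% and 19.3% of all genes, and 0 of the 9 were called higher at any time, against 21%, 20.6%, 19.8% and 19.8%. Glul, Oat, Rgn and Slc1a2 passed at all 4 times. Rgn differed by -1.77 at ZT2, -1.64 at ZT8, -2.06 at ZT14 and -1.65 at ZT20. Cyp2e1 passed at ZT8, ZT14 and ZT20 and was at -0.49 at ZT2 (adjusted p = 0.0765 in edgeR). Cyp1a2 did not pass at ZT8 (-0.30, adjusted p = 0.312 in edgeR), and Tbx3 did not at ZT8 (-0.35, adjusted p = 0.287) or ZT20 (-0.47, adjusted p = 0.157). The Cyp1a2 call was lost at ZT2 without cdHFD ZT2 replicate 3 (adjusted p = 0.052), and at ZT14 without cdHFD ZT14 replicate 1 (0.104) or 3 (0.0785) or chow ZT14 replicate 1 (0.0546) or 3 (0.150). Cyp2e1 passed at ZT2 without cdHFD ZT2 replicate 4 (0.046) or chow ZT2 replicate 2 (0.0298). Under total counts the genes called lower were 4 at ZT2, 3 at ZT8, 5 at ZT14 and 3 at ZT20, against 7.43%, 5.51%, 4.88% and 6.56% of all genes. Axin2 was called higher at ZT8, ZT14 and ZT20 and Lgr5 at ZT20, where 48.3% (ZT2), 53.3% (ZT8), 48.4% (ZT14) and 50.6% (ZT20) of all genes were higher. Under hepatocyte scaling 1 was lower at ZT2, 2 at ZT8, 3 at ZT14 and 0 at ZT20, against 3.46%, 3%, 1.73% and 2.63% of all genes, and 2, 3, 2 and 4 were higher, against 67.8%, 71.2%, 78.9% and 78.2%.

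Lgr5 alone of the 9 passed the test that the diet difference is unequal between times (adjusted p = 0.0222 in edgeR), which 5.77% of all genes passed. At ZT2 it had 3.41, 4.14, 4.53 and 2.01 CPM in cdHFD livers, against 8.89, 9.88, 14.2 and 7.36 CPM in chow livers. At ZT8 it had 3.99, 2.90, 3.67 and 5.45 CPM in cdHFD, against 10.2, 6.52, 5.03 and 6.31 CPM in chow. The diets did not overlap at ZT2 and met in 1 cdHFD liver at ZT8. At ZT14 the levels were 4.12, 2.90, 2.13 and 2.52 CPM in cdHFD and 3.73, 2.58, 6.75 and 5.07 CPM in chow. At ZT20 they were 5.37, 5.62, 4.96 and 4.64 CPM in cdHFD and 2.85, 2.49, 5.60 and 4.29 CPM in chow. At ZT20 the order of the means was turned, with the lowest cdHFD liver above 3 of the 4 chow livers. The differences were -1.49 at ZT2 (adjusted p = 1.72e-04 in edgeR), -0.83 at ZT8 (0.0239), -0.56 at ZT14 (0.153) and 0.45 at ZT20 (0.24). Under total counts the ZT20 difference was 1.02 (0.00678), and the inequality between times passed as well (0.0318). The ZT8 call was lost without cdHFD ZT8 replicate 2 (0.0824) or 3 (0.0629) or chow ZT8 replicate 1 (0.152). The inequality between times lost its call when chow ZT2 replicate 3 was left out (adjusted p = 0.055), or chow ZT20 replicate 1 (0.0542) or replicate 2 (0.0577), and 64 to 396 counts per library stand behind the values. In the same test Cyp2e1 had an adjusted p of 0.0938, which was 0.0211 without chow ZT2 replicate 4, and Tbx3 of 0.103, which was 0.040 without cdHFD ZT8 replicate 1.

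Time of day was reflected in the levels of some of the genes. In cdHFD livers 1 of the 9 genes, Cyp2e1, differed between times, against 5.43% of all genes, and 5 of the 9 had an unadjusted p under 0.05, against 18.7% of all genes. In chow livers Cyp2e1, Axin2, Lgr5 and Slc1a2 did, against 32.1% of all genes. A fit of a 24 h cosine called the same 4 genes in chow, where 17.7% of all genes passed, and Cyp2e1 in cdHFD, where 2.47% passed. At an unadjusted p under 0.05 this fit had 5 of the 9 in cdHFD, and 2136 of all 17853 genes. In no gene of the 9 did the test of a difference in rhythm between diets pass, which 3.64% of all genes did, although Cyp2e1 (adjusted p = 0.0889 in edgeR) and Lgr5 (0.0988) had unadjusted p under 0.05, as did 19.4% of all genes. Cyp2e1 passed it without chow ZT2 replicate 4 (adjusted p = 0.045) or chow ZT14 replicate 2 (0.0468). The cosine fit called Oat in chow as well without chow ZT2 replicate 2 (0.0358) or chow ZT8 replicate 3 (0.0499).

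Cyp2e1 was the gene with a daily course in both diets. Its mean level in cdHFD livers was 3247 ± 686 CPM at ZT2, 4303 ± 721 at ZT8, 2736 ± 673 at ZT14 and 1854 ± 431 at ZT20 (SD, n = 4). In chow livers it was 4552 ± 1497 CPM at ZT2, 8990 ± 1394 at ZT8, 8007 ± 1832 at ZT14 and 5024 ± 638 at ZT20. The highest mean was at ZT8 in both diets, and the 4 chow livers at ZT14 (6408 to 10141 CPM) stayed near that level while those of cdHFD at ZT14 (1851 to 3357 CPM) did not. The fitted amplitude was 0.63 ± 0.11 on the log2 scale with a peak at 7.25 ± 0.70 h in cdHFD (adjusted p = 0.00388 in edgeR), and 0.59 ± 0.11 with a peak at 11.02 ± 0.73 h in chow (adjusted p = 0.00132). These amplitudes amount to 2.38-fold between peak and trough in cdHFD and 2.28-fold in chow. With collections 6 h apart, peak times rest on the shape of the cosine.

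In chow the other rhythmic genes fell into different parts of the day. Slc1a2 peaked at 10.1 ± 1.0 h with an amplitude of 0.44 ± 0.11 (adjusted p = 0.0143 in edgeR), near Cyp2e1. Lgr5 peaked at 4.47 ± 0.89 h with an amplitude of 0.75 ± 0.17 (adjusted p = 0.00524), or 2.81-fold between peak and trough. Axin2 peaked at 2.30 ± 1.07 h with an amplitude of 0.54 ± 0.15 (adjusted p = 0.019). The Axin2 levels behind this were 8.75, 10.7, 17.4 and 16.7 CPM in chow at ZT2, 7.45, 7.32, 8.83 and 8.92 at ZT8, 6.75, 4.59, 7.42 and 5.96 at ZT14, and 3.77, 7.03, 12.3 and 10.3 at ZT20. The ZT2 livers with 17.4 and 16.7 CPM were the females, and the call was lost without either of them (adjusted p = 0.0656 and 0.0541). In cdHFD the fitted amplitude of Axin2 was 0.18 ± 0.15 and that of Lgr5 0.22 ± 0.17, and neither passed. Slc1a2 (0.36 ± 0.11, unadjusted p = 0.0132 in edgeR) and Oat (0.50 ± 0.18, 0.0272) did not pass there either. The same held for Glul (0.28 ± 0.09, 0.0256) and Cyp1a2 (0.36 ± 0.12, 0.0172). In chow the uncalled amplitudes were 0.44 ± 0.18 for Oat, 0.23 ± 0.09 for Glul and 0.06 ± 0.12 for Cyp1a2.

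Females had the higher levels of Glul and Axin2 in chow. In cdHFD 0 of the 9 passed in edgeR, where 0.941% of all genes did, and 4 were at an unadjusted p under 0.05, against 7.58% of all genes. DESeq2 called 1, Slc1a2. In chow 2 of the 9 passed as higher in females, Glul and Axin2, against 6.12% of all genes, and DESeq2 called Slc1a2 besides them. The change of the sex difference with diet passed in 0 of the 9 genes, against 1.85% of all genes, with 1 at an unadjusted p under 0.05, against 11.6% of all genes.

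Glul in cdHFD females had 503, 763 and 1083 CPM as lowest, median and highest of 7 livers, against 483, 572 and 738 CPM in 9 males. In chow it had 1071, 1331 and 2122 CPM in 8 females, against 765, 1051 and 1162 CPM in 8 males. Both chow females lay above both chow males at each of the 4 times. The log2 difference, female minus male, was 0.32 ± 0.14 in cdHFD (adjusted p = 0.525 in edgeR) and 0.44 ± 0.13 in chow (adjusted p = 0.0276). The chow call was lost without chow ZT2 replicate 2 or 4, ZT8 replicate 4 or ZT20 replicate 1, with adjusted p up to 0.094.

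Slc1a2 had a sex difference of 0.58 in cdHFD (adjusted p = 0.0874 in edgeR and 0.0249 in DESeq2) and of 0.45 in chow (adjusted p = 0.0588 in edgeR and 0.0399 in DESeq2), and under total counts in edgeR the chow difference passed as well (adjusted p = 0.0421). In cdHFD it had 33.6, 76.9 and 99.2 CPM as lowest, median and highest in females and 27.9, 43.3 and 56.8 CPM in males, and in chow 119, 181 and 236 CPM in females and 87.9, 125 and 184 CPM in males. The sexes overlapped in both diets. At ZT2 the cdHFD females had 99.2 and 79.1 CPM and the males 27.9 and 34.97 CPM. At ZT20 the females, with 40.1 and 33.6 CPM, were below the males, with 43.3 and 47.1 CPM. Glul did likewise in the same livers, with 1026 and 907 CPM in females and 492 and 483 CPM in males at ZT2, and with 503 and 504 CPM in females and 666 and 572 CPM in males at ZT20. The Slc1a2 difference in cdHFD passed without cdHFD ZT20 replicate 2 (adjusted p = 0.0385) or 4 (0.0216). Sex by time was not tested.

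Axin2 differed by sex in chow and not detectably in cdHFD. It had 6.67, 9.83 and 16.2 CPM as lowest, median and highest in cdHFD females and 6.66, 8.34 and 15.4 CPM in cdHFD males. In chow it had 5.96, 9.62 and 17.4 CPM in females and 3.77, 7.18 and 10.7 CPM in males. The differences were -0.06 ± 0.19 in cdHFD (adjusted p = 0.986 in edgeR) and 0.60 ± 0.18 in chow (adjusted p = 0.0248), and their change was -0.66 ± 0.26 (unadjusted p = 0.0129, adjusted p = 0.228). Among males alone the diet difference of Axin2 was 0.54 (adjusted p = 0.0128), and among females alone it was -0.12 (adjusted p = 0.501). The chow call was lost without chow ZT2 replicate 1 or ZT20 replicate 1 or 3, with adjusted p up to 0.0764. Cyp1a2 was the gene with lower values in females in both diets, at -0.39 ± 0.18 in cdHFD and -0.12 ± 0.17 in chow, and neither passed (adjusted p = 0.493 and 0.754 in edgeR).

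**Figure D3:**
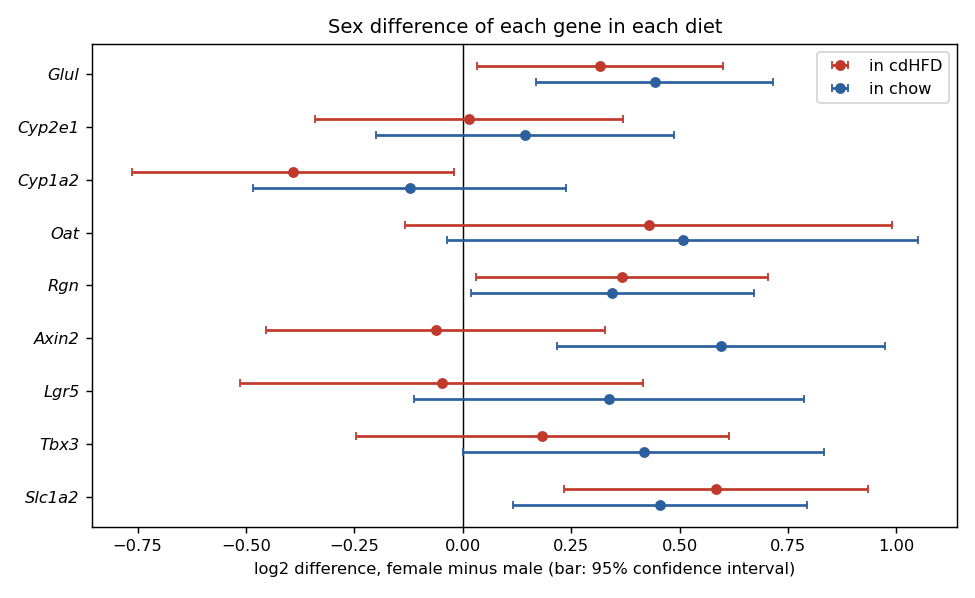
Log2 difference of each gene, female minus male, with its 95% confidence interval, in cdHFD (red, upper of each pair) and in chow (blue). Glul and Axin2 in chow passed the adjusted threshold, and Axin2 lies at -0.06 in cdHFD and 0.60 in chow.

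Within a diet r between pairs of the genes ran from -0.473 to 0.92 in cdHFD and from -0.318 to 0.784 in chow. Correlations of log2 CPM were computed over the 16 livers of a diet, 72 in all with adjustment over them, by permutation tests of 100000 resamples. In both cdHFD and chow 8 of 36 pairs passed, and all of these were positive. How often pairs of other genes correlate over the same livers was not computed. The counts and r values of this paragraph therefore have no background beside them. Of the 10 pairs among Glul, Cyp2e1, Oat, Rgn and Slc1a2, a group named after the values were seen, 7 passed in cdHFD and 7 in chow, with median r of 0.689 in cdHFD and 0.714 in chow. The remaining pair was Axin2 with Tbx3 in cdHFD and Axin2 with Lgr5 in chow. Cyp1a2 passed with none of the 8 others in either diet, with r from -0.433 to 0.556 in cdHFD and from -0.0624 to 0.145 in chow.

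Glul and Slc1a2 were the closest pair in cdHFD. Their Pearson r was 0.92 and Spearman's rho 0.918 in cdHFD (adjusted permutation p = 7.2e-04 for both, from the smallest p that the resamples can give for r, 1e-05), and r was 0.868 without the 2 livers farthest from the Glul median. In chow r was 0.75 and rho 0.853 (adjusted permutation p = 0.00648 and 0.00144), and r was 0.805 without 2 livers. Oat and Rgn had r of 0.781 in cdHFD and 0.784 in chow (adjusted permutation p = 0.00648 for each), with rho of 0.791 and 0.838 (adjusted permutation p = 0.00619 and 0.0036) and r of 0.727 and 0.825 without 2 livers. Axin2 and Tbx3 in cdHFD had r of 0.852 and rho of 0.879 (adjusted permutation p = 0.0018 and 7.2e-04), and r of 0.791 without 2 livers. Axin2 and Lgr5 in chow had r of 0.682 and rho of 0.635 (adjusted permutation p = 0.0197 and 0.0435), and r fell to 0.49 without the 2 livers farthest from the Axin2 median. With time and sex removed from both genes, 6 pairs passed in cdHFD, all of them among the 8 above, and 8 in chow, of which 5 were among the 8 above. In chow Axin2 with Lgr5 (r = 0.322, adjusted permutation p = 0.537), Glul with Slc1a2 (0.513, 0.163) and Glul with Oat (0.529, 0.157) then no longer passed, and Glul with Cyp2e1, Cyp2e1 with Oat and Axin2 with Tbx3 did. In cdHFD Cyp2e1 and Rgn no longer passed with Slc1a2, while Glul with Slc1a2 (0.851, 0.00144) and Axin2 with Tbx3 (0.808, 0.00192) still did. The resamples shuffled the residuals without allowing for the time and sex terms removed, so these p-values are too small. Passes near the threshold were Axin2 with Tbx3 in chow (0.626, 0.0494) and Glul with Oat in cdHFD (0.629, 0.0494), which this leaves uncertain. With total counts 7 pairs passed in each diet, all among the 8 above.

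**Figure D4:**
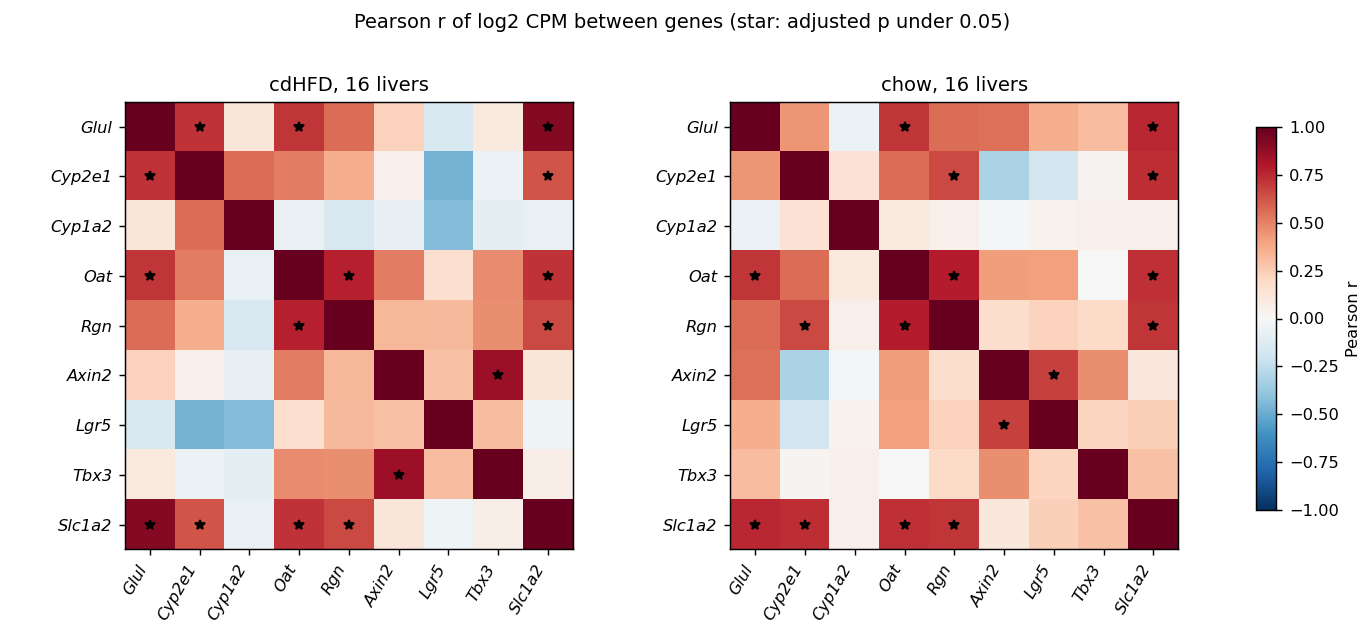
Pearson r of log2 CPM for each pair of genes over the 16 cdHFD livers (left) and the 16 chow livers (right), with stars at adjusted permutation p under 0.05. Stars gather among Glul, Cyp2e1, Oat, Rgn and Slc1a2 in both diets, and the row of Cyp1a2 has none.

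The genes whose levels followed each of the 9 most closely were taken from 13484 genes of at least 1 CPM, by Pearson r over the 32 livers after subtraction of each diet's mean. They are a description, since they were picked from the top of that many. Cyp2e1 had the highest likeness, with Upp2, a uridine phosphorylase gene (r = 0.906), the glutamine transporter gene Slc38a3 (0.88) and Por, the reductase that passes electrons to cytochromes P450 (0.864). Rgn was followed by Cyp2c50 (0.877), Pon1 (0.827) and Dpp4 (0.803). Slc1a2 was followed by Rnase4 (0.799), Lhpp (0.777) and Serpina6 (0.765), and Glul by Lhpp as well (0.763) and by Rnf186 (0.741). Oat was followed by Rdh16 (0.781) and Aldh4a1 (0.78). Tbx3 was followed by Rnf43, the Wnt feedback ubiquitin ligase (0.705), Iffo2 (0.699) and Bcor (0.692). For Axin2 (Gemin8, Sgsh and Mgat1), Lgr5 (Hltf, Ttf2 and Cul1) and Cyp1a2 (Hnf4aos, Slc22a4 and Tcea3), as for Tbx3, no r was above 0.723.

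Other genes of the central vein zone were split. Of 22 further pericentral genes 12 were lower and 3 higher in cdHFD under TMM, with a median of -0.35, and 8 lower and 11 higher under total counts. Beside these and the lists below stand the shares over all genes, 31.2% lower and 31% higher under TMM. Under total counts those shares were 9.14% lower and 69.2% higher. The Cyp2c genes led them, with Cyp2c37 at 71.9 CPM in cdHFD and 591 CPM in chow (-2.93 ± 0.13, adjusted p = 7.11e-18 in edgeR), Cyp2c50 at 112 CPM in cdHFD and 692 CPM in chow (-2.62 ± 0.12) and Cyp2c29 at 104 CPM in cdHFD and 627 CPM in chow (-2.62 ± 0.27). These belong to a family of close copies, and how reads were shared among them is not given. The 20 periportal genes, which belong to the opposite end of the lobule, were lower in 16 and higher in 1, with a median of -1.23, and under total counts lower in 12 and higher in 5. Among them Etnppl was at -2.67 ± 0.20, the histidine ammonia-lyase gene Hal at -2.57 ± 0.13 and Cyp2f2 at -2.35 ± 0.17. Hepatocyte identity genes were lower in 18 of 19, with a median of -1.09. The median of the 9 genes, -0.82, thus stood between that of the other pericentral genes and that of the periportal genes, and no test was made of these differences.

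For the lists of the Wnt pathway, the shares over all genes are 31.2% lower and 31% higher under TMM, and 9.14% lower and 69.2% higher under total counts. Of 12 tested ligand, R-spondin and secretion genes 4 were lower and 4 higher in cdHFD, with a median of -0.02, and under total counts 1 lower and 7 higher, so that the counts under TMM were close to the share over all genes. Wnt9b, a ligand of central vein endothelium, was at 0.906 ± 0.373 CPM in cdHFD and 1.91 ± 1.196 CPM in chow (SD, n = 16), a difference of -0.94 ± 0.21 (adjusted p = 1.83e-04 in edgeR). Wnt2, the other main ligand there, was at -0.18 (adjusted p = 0.32), and the R-spondin gene Rspo3 rose by 0.42 ± 0.16 (adjusted p = 0.0103). Wls, which carries Wnt proteins to the cell surface, rose by 1.29 ± 0.16, while Porcn, which acylates them, fell to 2.74 CPM in cdHFD, against 9.72 CPM in chow (-1.80 ± 0.07). Wnt11 rose by 1.44 ± 0.34, at 0.421 CPM in cdHFD and 0.112 CPM in chow, so that its size depends on few counts. Wnt9b was below 1 CPM in cdHFD as well. The 1 gene of this list called lower under total counts was Porcn, so the Wnt9b decrease was not called there.

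Of 15 tested receptor genes 8 were lower and 3 higher, with a median of -0.15, and under total counts lower in 3 and higher in 7. The R-spondin receptor gene Lgr4, which is a paralogue of Lgr5, had 17.5 ± 3.6 CPM in cdHFD and 40.9 ± 11.7 CPM in chow (-1.22 ± 0.11, adjusted p = 1.03e-11 in edgeR). Fzd8 was at -1.15 ± 0.11 and Fzd7 at -0.77 ± 0.10. Of 5 secreted inhibitors tested of 10 listed 2 were lower and 2 higher under TMM, and 0 lower and 2 higher under total counts. The largest changes were those of Frzb (2.25 ± 0.16) and Dkk3 (1.72 ± 0.21), which rose, and Sfrp5 (-0.76 ± 0.30), which fell. Sfrp5 was at only 0.207 CPM in cdHFD and 0.401 CPM in chow. Of the 11 genes of the beta-catenin destruction complex and its partners 5 were lower and 0 higher under TMM, with Dvl1 at -0.47, Dvl2 at -0.44 and Amer1 at -0.26, and under total counts 0 were lower and 9 higher, at a scaling under which 69.2% of all genes were higher. Ctnnb1, the gene of beta-catenin itself, was at 0.30 (adjusted p = 0.133). The TCF/LEF factors and cofactors were lower in 4 and higher in 1 of 8 under TMM, with Tcf7l2 at -0.33, Bcl9l at -0.54 and Tcf7 at 0.28, and lower in 0 and higher in 7 under total counts.

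Of 12 other feedback and target genes of Wnt signalling 5 were higher and 4 lower, close to the share over all genes. Cd44 (2.55 ± 0.15), Myc (1.67 ± 0.28) and Ccnd1 (1.59 ± 0.25), which many cell types express and which Wnt shares with other pathways, rose. Among the feedback inhibitors, Rnf43 was at -0.47 ± 0.13 (adjusted p = 0.00122 in edgeR), Sp5 at -0.47 ± 0.16 (0.00914), Nkd1 at -0.29 ± 0.08 (0.00317) and Znrf3 at -0.02 ± 0.09 (0.84). Notum, a secreted deacylase that inactivates Wnt proteins, was chosen after its values were seen. It had 32.8 ± 9.0 CPM in cdHFD and 67.7 ± 19.2 CPM in chow, a difference of -1.01 ± 0.10 (adjusted p = 3.04e-10), which was -0.44 under total counts. The decreases of Rnf43, Sp5, Nkd1 and Tcf7l2 turned to positive values under total counts, of 0.09, 0.09, 0.28 and 0.25. Of the Wnt pathway genes named here Porcn (-1.23), Lgr4 (-0.64), Fzd8 (-0.58) and Notum were called lower under total counts as well.

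**Figure D5:**
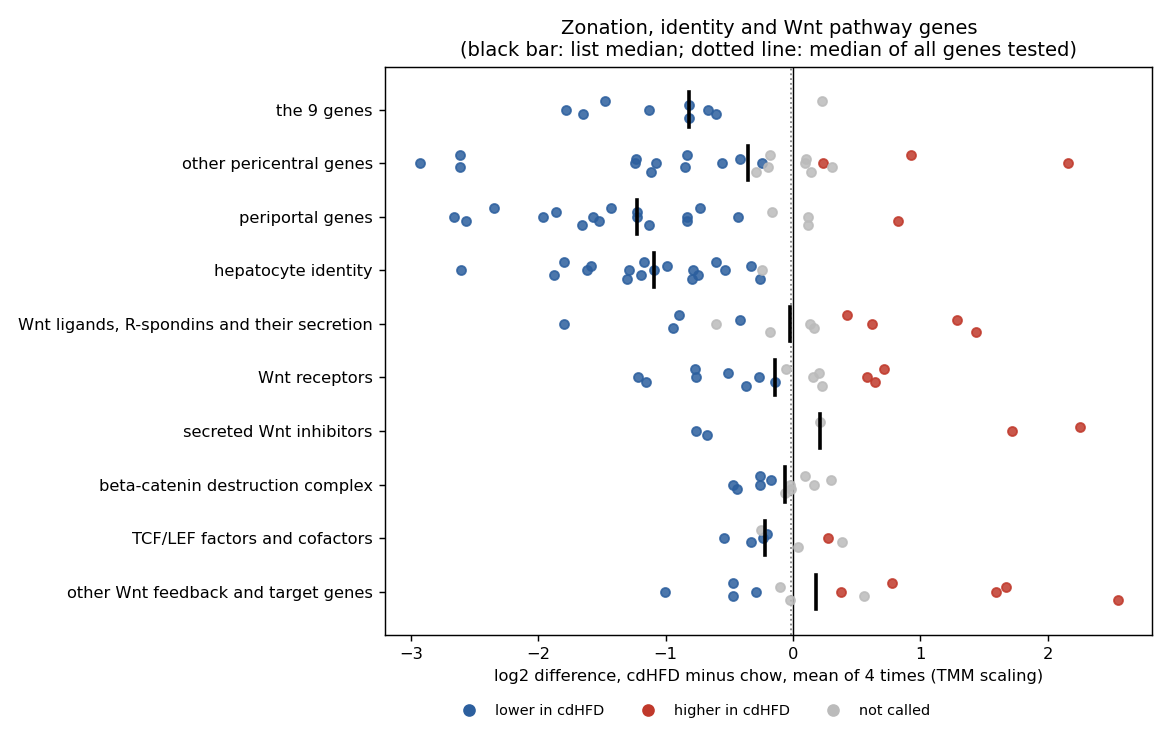
Log2 difference of each gene of 10 lists, cdHFD minus chow averaged over the 4 times under TMM scaling (horizontal axis), coloured by call, with the median of each list as a black bar and that of all genes as a dotted line. The 9 genes have a median of -0.82, other pericentral genes of -0.35, periportal genes of -1.23, and the Wnt pathway lists lie around 0, with medians from -0.22 to 0.21, all of which are shifted up under total counts.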

How the data were processed

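Polyadenylated RNA of mouse liver was sequenced from non-directional libraries as paired-end reads, from samples with an RNA integrity number above 6.5, per the labels' protocols. The deposited table holds raw counts per gene for 32 libraries, as the authors made them, and the submitters' processing notes name HISAT2, featureCounts, DESeq2 and the build GRCm38 (mm10). Versions and counting options were not given in the sources used. Counts were used as deposited. Columns were matched to samples by name, and groups are those of the titles.

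Libraries were scaled by TMM and tested in R 4.3.3 with edgeR 4.0.16 (quasi-likelihood, robust, prior count of 2), on the 17853 genes that its default expression filter left, with Benjamini-Hochberg adjustment over all of them and a threshold of 0.05. One model had 8 groups and sex, another had sex, diet and a 24 h cosine and sine within diet, and the last had 8 groups and sex within diet. The SE beside a log2 difference, and the interval of 95%, are residual ones, from a linear fit to log2 CPM with the same terms. Correlations used log2(CPM + 0.1). The code was tested on simulated data. There the chow rhythm test called 6 of 100 genes planted at 1.5-fold between peak and trough, and 50 of 100 at 2-fold. Rhythms of this size can thus go uncalled. The averaged diet test called 76 of 100 genes planted at 1.5-fold and 98 of 100 at 2-fold. The sex test in chow called 49 of 100 and 87 of 100.

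Alternatives were total counts, DESeq2's size factors, no low-count filter, a replicate block, each sex alone, hepatocyte identity scaling, each library left out, and the Wald test of DESeq2 1.42.0. Named from each gene list are the 3 called genes of largest change plus 10 Wnt genes whatever their values. A few genes that these rules or the likeness ranking would name are not reported here. The members and the lists were chosen with earlier results of these data known. Coordinates are from GENCODE M21, and promoter sequences from RefSeq (GRCm38.p6), which covered 6 of the 9 genes. No 2 replicates matched within counting noise in a chi-square test (48 pairs, 18.96 to 324 per degree of freedom).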

Additional observations from a re-analysis of the deposited data

Results flagged for a closer look

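In 7 of the 72 sets of 4 livers (9 genes in 8 groups), 1 liver stood apart from the other 3 by a gap, relative to the range, that chance gives in about 1 set of 20. Glul was at 1083 CPM in replicate 3 of cdHFD ZT8, against 731 to 763 CPM in the others. Rgn was at 554 CPM in replicate 3 of cdHFD ZT2, against 306 to 320 CPM, and at 330.01 CPM in replicate 4 of cdHFD ZT20, against 414 to 420.04 CPM. In chow ZT20, replicate 4 had 1585 CPM of Rgn, against 1122 to 1180 CPM, and replicate 3 had 577 CPM of Cyp1a2, against 934 to 990.1 CPM. Axin2 was at 8.17 CPM in replicate 1 of cdHFD ZT14, against 6.66 to 6.79 CPM, and Tbx3 at 22.7 CPM in replicate 1 of chow ZT8, against 39.1 to 42.2 CPM.

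The diet difference of Lgr5 was unequal between times, from -1.49 at ZT2 to 0.45 at ZT20 on the log2 scale (edgeR, adjusted p = 0.0222).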

How the results depend on the processing

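With DESeq2's size factors the 9 genes kept every direction and call. Total counts gave 1 gene higher and 5 lower on average, 4 lower at ZT2, 1 higher and 3 lower at ZT8, 1 higher at ZT14, and 2 higher and 3 lower at ZT20. Values that changed sign were Cyp2e1 (0.0459) and Axin2 (0.16) at ZT2, Cyp1a2 (0.31) and Tbx3 (0.25) at ZT8, Lgr5 (0.00721) at ZT14, Tbx3 (0.11) at ZT20 and the change of the sex difference of Rgn with diet (-0.00695).

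Hepatocyte identity scaling gave 5 genes higher and 3 lower on average, 2 higher and 1 lower at ZT2, 3 higher and 2 lower at ZT8, 2 higher and 3 lower at ZT14, and 4 higher and 0 lower at ZT20. Averaged, Glul (0.28), Cyp1a2 (0.43), Lgr5 (0.49) and Tbx3 (0.27) changed sign. So did Glul (0.0763), Cyp2e1 (0.50), Cyp1a2 (0.23), Axin2 (0.62) and Tbx3 (0.0650) at ZT2, and Glul (0.31), Cyp1a2 (0.67), Lgr5 (0.15) and Tbx3 (0.60) at ZT8. At ZT14 these were Glul (0.29), Cyp1a2 (0.51) and Lgr5 (0.65), and at ZT20 Glul (0.46), Cyp1a2 (0.32) and Tbx3 (0.77).

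Without the low-count filter 1 gene was higher in cdHFD on average, 3 had unequal diet differences over time, 5 differed between times and 3 were rhythmic in cdHFD, 2 differed in rhythm between diets, and 5 were higher in females in chow and 1 in cdHFD. The cause was not tested. Males alone gave 1 gene higher on average, with Lgr5 no longer passing as lower (-0.39, adjusted p = 0.0592), and females alone turned Axin2 to -0.12. DESeq2 called 1 gene higher in cdHFD females, Slc1a2, and called Slc1a2 in chow females as well (0.45, adjusted p = 0.0399).

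With each library left out in turn, the count lower on average was 8 throughout. Unequal diet differences were called in 0 to 2 genes, a difference of rhythm in 0 to 1, and higher levels in females in 0 to 4 genes in chow and 0 to 1 in cdHFD. Shares over all genes were not worked out for these fits. Female minus male in cdHFD changed sign for Cyp2e1 (-0.11 to 0.0903), Axin2 (-0.17 to 0.0599) and Lgr5 (-0.16 to 0.0576), and its change with diet for Oat (-0.29 to 0.0898), Rgn (-0.11 to 0.10) and Slc1a2 (-0.00609 to 0.25).

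Replicate numbers gave no sign of pairing the samples: of 16 same-number pairs 1 had a correlation of deviations above 0.1, with a median of -0.09. Livers of the same number mostly share sex, and the deviations came from a fit with 1 sex term for both diets. Sex differences that vary with diet can lower these correlations, so the check cannot exclude pairing. A fit with the replicate number as a block left 8 genes lower and 0 higher on average and changed no call among the 9 genes. The lowest counts, 64 for Lgr5 and 107 for Axin2 in a library, set the counting precision of those genes.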

Other observations

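Genes of glutamine, glutamate and ornithine handling outside the 9 were split, 11 higher and 9 lower in cdHFD of 23, against 31% and 31.2% of all genes. Under total counts 14 were higher and 7 lower, against 69.2% and 9.14%. The cystine-glutamate exchanger gene Slc7a11 was at 2.74 CPM in cdHFD and 0.0314 CPM in chow, a log2 difference of 4.77 ± 0.36 (SE; edgeR, adjusted p = 1.91e-12) whose size depends on few counts in chow. Aldh18a1, which makes the precursor of proline and ornithine from glutamate, was at 11.3 CPM in cdHFD and 1.40 CPM in chow (2.95 ± 0.10), and Asns, which uses glutamine to make asparagine, at 14.2 CPM in cdHFD and 2.37 CPM in chow (2.81 ± 0.32). These 3 had the largest changes of a list whose log2 differences ran from -1.96 to 4.77, so they do not stand for the list.

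Cyp1a2 is also known as a target of the aryl hydrocarbon receptor. Of 9 other tested genes of that receptor's list, 3 rose and 1 fell in cdHFD, against 31% and 31.2% of all genes. Under total counts 7 rose and 1 fell, against 69.2% and 9.14%. The counts that rose were thus close to the shares over all genes. Under TMM the log2 differences of the list ran from -1.15 to 1.73, and the genes of largest change follow. Cyp1b1 was at 2.91 CPM in cdHFD and 0.838 CPM in chow (1.73 ± 0.26), Nqo1 at 31.8 CPM in cdHFD and 11.7 CPM in chow (1.47 ± 0.12) and Ahrr at 0.228 CPM in cdHFD and 0.0768 CPM in chow (1.19 ± 0.21). Cyp1a2 itself was at -0.66 under TMM and at -0.09 under total counts.

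For the cell type markers, the shares over all genes are 31% higher and 31.2% lower under TMM. All 15 markers of macrophages rose, led by Gpnmb (8.63), Trem2 (5.38) and Itgax (3.91). Of 13 stellate cell markers 10 rose and 0 fell, led by Col1a1 (3.04), Col3a1 (2.63) and Lum (1.94). Of 7 cholangiocyte markers 5 rose and 1 fell, led by Cftr (2.23), Epcam (1.60) and Spp1 (1.51), with -0.36 as the lowest value. Of 10 T, B and NK cell markers 4 rose and 0 fell, led by Ncr1 (1.60), Prf1 (1.34) and Cd8a (0.95). The 4 that rose are close to the share over all genes, and the summed levels of these 10 markers overlapped between diets. Cftr, Ncr1, Prf1 and Cd8a had means below 1 CPM in both diets, so the size of their changes depends on few counts. Of 16 endothelial markers 8 rose and 3 fell, led by Lyve1 (1.44), Thbd (1.12) and Fabp4 (1.02), with -0.39 as the lowest value. Their summed levels overlapped between diets as well. Hepatocyte identity genes fell in 18 of 19, led by Serpina1c (-2.61), Hpd (-1.88) and Onecut1 (-1.80). Under total counts 13 of them were lower and 2 higher, against 9.14% and 69.2% of all genes.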
